A study of Mus musculus with 4 samples.

Results

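The genes described here lie on the mouse X chromosome between 0 and 40 Mb and had at least 20 allele-assigned reads in each of 4 libraries, that is, reads that cover a difference between the parental strains. Of the 261 genes of the interval in the table, 69 met this rule, out of 22686 genes in all. A further 10 genes were left out by name, 8 of which had enough reads, and 182 had fewer reads in at least 1 library. Dynlt3 had 65 to 152 reads but no deposited paternal fraction, so shares are given for 68 genes. Just inside the read limit were Prickle3, Wdr45 and Syn1, with 22, 24 and 25 reads in their shallowest library, and just under it Gria3, Zcchc12 and Lonrf3, with 19, 18 and 17. The members run from Nudt11 (mm9, chromosome X, 5624625 to 5631869) to Stag2 (39502589 to 39630363). Position and read number chose them. The 10 names left out (Shroom4, Suv39h1, Cybb, 1810030O07Rik, Ddx3x, Fundc1, Kdm6a, Ndufb11, Slc25a5 and Ndufa1) were set with results of these data known. The 8 of them with enough reads had pooled paternal shares of 24.7% to 33.1% over the 4 libraries, mostly from Ddx3x.

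In female mammals most genes of 1 X chromosome are silenced. The long noncoding RNA Xist coats that chromosome, and repressive chromatin marks and DNA methylation then keep it silent. A minority of genes escape and go on being transcribed from the inactive X. SmcHD1 is a chromatin protein of the structural maintenance of chromosomes family that gathers on the inactive X and takes part in keeping it silent. MD1 (MommeD1) is a loss-of-function allele of its gene. Known escape genes of this interval include Ddx3x, an RNA helicase gene, and Kdm6a, a histone demethylase gene, and both are among the genes left out.

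The libraries came from female epiblast stem cells (EpiSCs), pluripotent cells of the epiblast, here labelled embryonic day 6.5. The cross is given as C57BL6/J by an F1 of JF1 and C57BL6/J, and each library had 1 of 4 genotypes. These were Smchd1 +/+ with XistdeltaA/+, Smchd1 MD1/MD1 with XistdeltaA/+, Smchd1 +/+ with Xist1lox/+ and Smchd1 MD1/MD1 with Xist1lox/+. All 4 libraries thus carried a heterozygous Xist mutation, the +/+ controls included. Each genotype had 1 library, and the labels name neither clones nor pooled animals. The question put to these genes is how large the paternal part of their RNA was in cells of either Smchd1 genotype. Below, each MD1/MD1 library is compared with the +/+ library of the same Xist mutation, as the XistdeltaA/+ pair and the Xist1lox/+ pair. Where 2 values are given for a genotype, the XistdeltaA/+ library comes first.

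Each library held 7301034 to 8008500 allele-assigned reads, of which 26603 to 29811 fell on the 68 genes. Smchd1 FPKM (a length- and depth-normalized level) was 27.0 and 20.9 in +/+, against 6.68 and 5.98 in MD1/MD1. Xist reads were at least 99.5% paternal in every library. Of 12 primed epiblast markers 11 were at 1 FPKM or more in every library, and T was under 1. Fibroblast markers, all 8 of them at 1 FPKM or more in each library, summed to 79.6 and 212 FPKM in the XistdeltaA/+ pair (+/+ first) and to 94.1 and 93.9 in the Xist1lox/+ pair. Macrophage markers summed to 22.3, 979, 348 and 314 FPKM in the same order. In the +/+ XistdeltaA/+ library 1 of 8 macrophage markers reached 1 FPKM and C1qa, C1qb, Tyrobp and Emr1 were at 0, while all 8 did so in the other 3. Reads on the macrophage markers were 1.46% to 2.32% paternal in the 3 libraries with them, and those on the fibroblast markers 6.19% to 32.9% paternal. The part of such cells in the shares below was not tested. In bulk RNA, a low paternal share in all cells and a high share in few cells cannot be told apart.

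The paternal share of these genes was higher in both MD1/MD1 libraries. Pooled over the reads of the 68 genes, it went from 1.39% (1.26 to 1.54) to 9.69% (9.35 to 10.03) within the XistdeltaA/+ pair. The Xist1lox/+ pair went from 1.56% (1.42 to 1.71) to 9.77% (9.42 to 10.13). The differences were 8.30 and 8.21 points. Uba1, the member with the most reads, added to them: without it they were 7.32 and 7.19 points, and with equal weight for each gene 6.32 and 6.08 points. Both MD1/MD1 values lay above both +/+ values, but 2 libraries against 2 cannot go below p = 0.333 in an exact permutation test (two-sided), and p was 0.333. The ranges in parentheses are 95% Clopper-Pearson (exact) intervals and, like the upper limits given for 0 paternal reads (3 reads of the total), cover counting error only.

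As a background of false paternal reads, autosomal windows of 10 Mb were taken in which 90% of genes had a paternal share under 5%, so that a low value is partly set by that choice. The windows were chosen in each library by its own shares, so the backgrounds cover different sets of genes. They numbered 48 and 29 in the XistdeltaA/+ pair (+/+ first) and 69 and 49 in the Xist1lox/+ pair. Pooled, they had 0.172% and 0.754% paternal reads in the XistdeltaA/+ pair and 0.361% and 0.292% in the Xist1lox/+ pair. The lower bound of the interval lay above the background of the same library for 19 and 18 of the 68 members in +/+, and for 46 and 52 in MD1/MD1. In +/+ 26 members had no paternal read in either library.

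Gene by gene, 33 of the 68 members had a higher paternal share in MD1/MD1 in both pairs by Fisher's exact test (two-sided) with Benjamini-Hochberg adjustment over 341 X-linked genes, and 0 had a lower share in both. Of all X-linked genes tested 35.8% were higher in both pairs and 2.05% lower. This test compares the reads of 2 libraries, not the conditions. In single pairs, 39 members were higher with XistdeltaA/+ (46% of all tested) and 35 with Xist1lox/+ (41.1%). A fall was called for 0 members in the first pair (3.52% of all tested) and for 2, Clcn5 and Sept6, in the second (4.69%). The median difference of the 68 members was 5.80 and 5.61 points, against 2.72 and 2.33 points for all 341 genes. For 48 members both MD1/MD1 shares lay above both +/+ shares (56.3% of all tested), and for 0 members both lay below (7.62%). The counts of 0 depend on the names left out. Fundc1, 1 of them and counted among the 341 genes, was lower in both pairs. It was at 23.1% and 21.2% in +/+, against 10.6% and 13.3% in MD1/MD1. Among the other 273 X-linked genes 89 were higher in both pairs. No test of the difference between the interval and the rest of the X was made, since neighbouring genes are not independent.

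**Figure D1:**
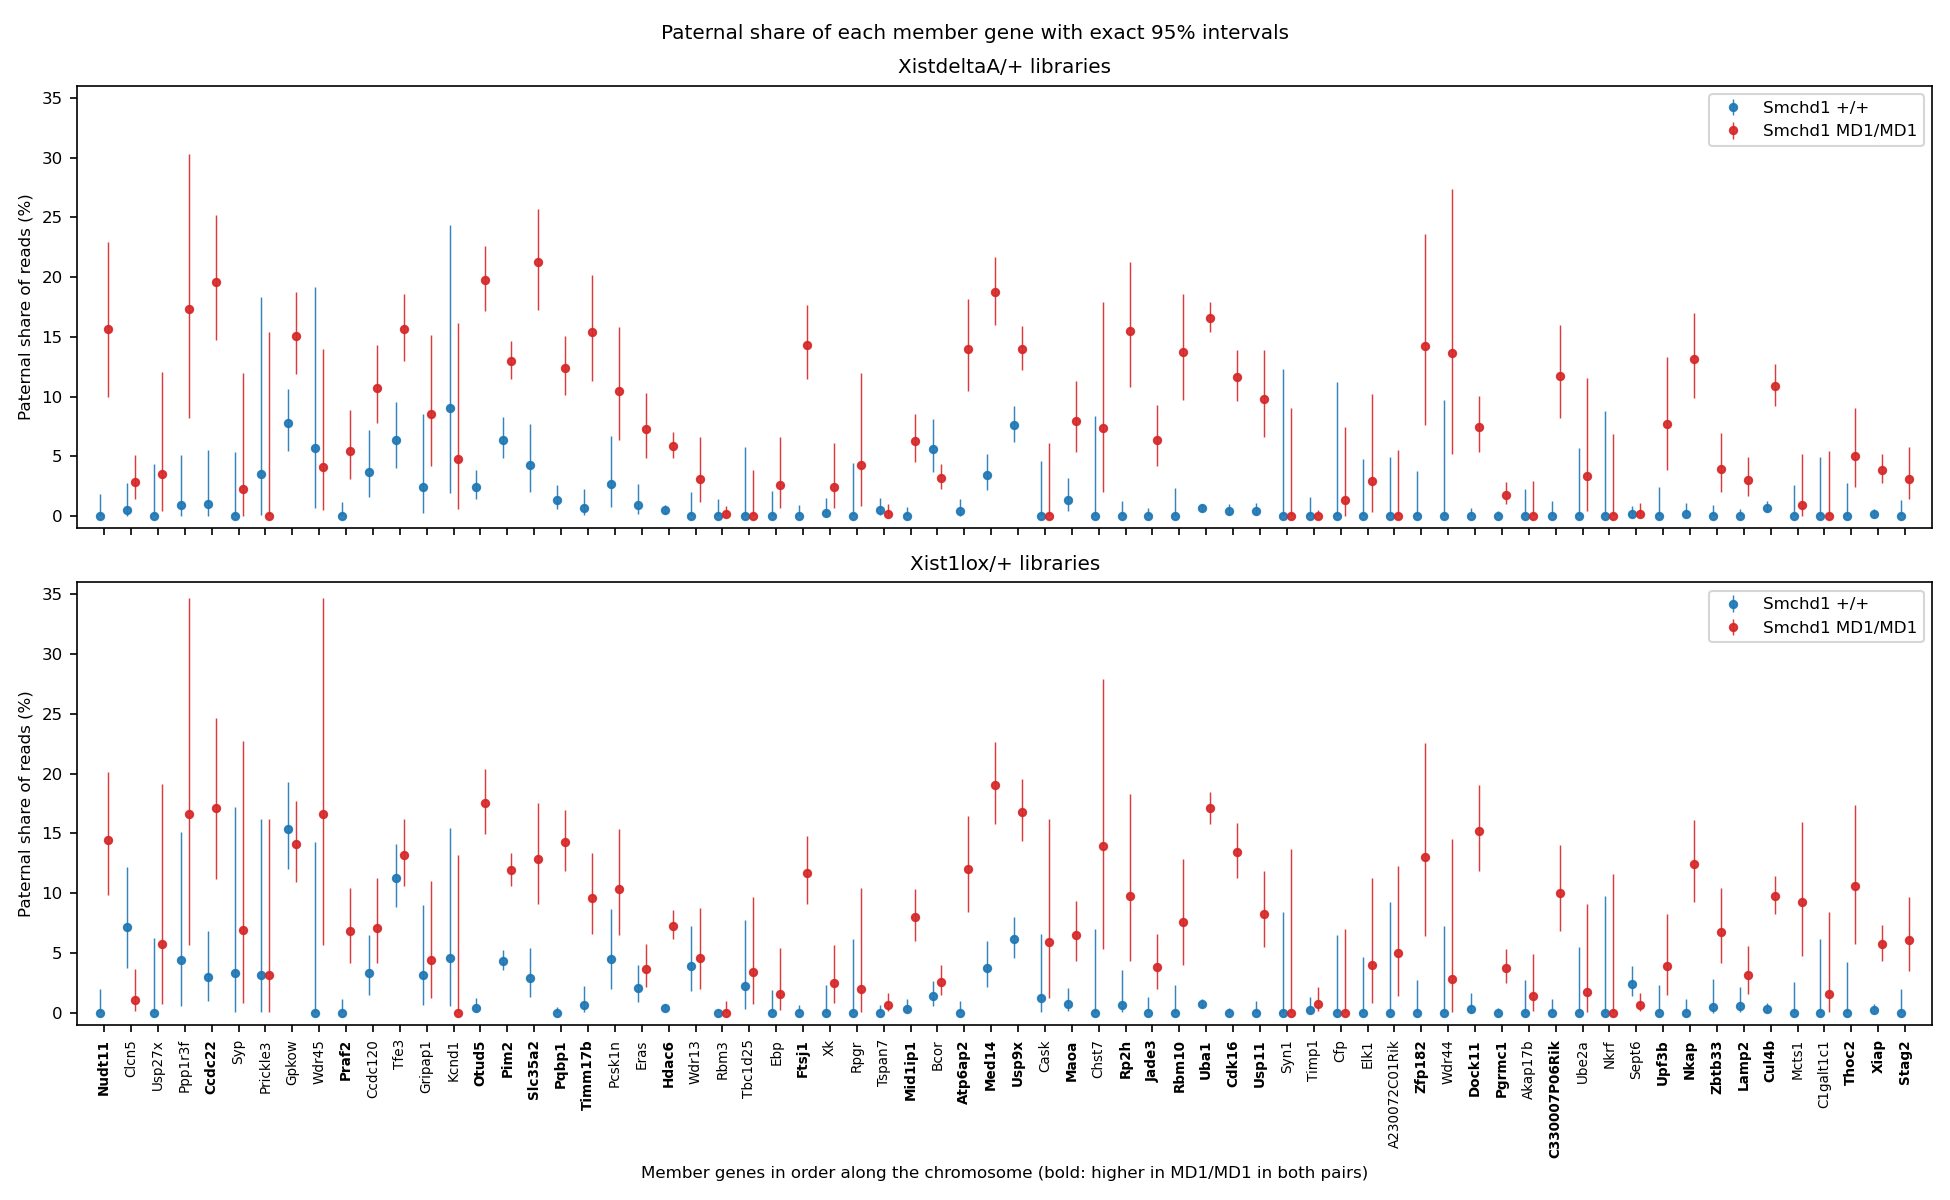
Paternal share of allele-assigned reads (%, y axis) for the 68 members in order along the chromosome (x axis), with the XistdeltaA/+ libraries above and the Xist1lox/+ libraries below. Points are single libraries, +/+ in blue and MD1/MD1 in red, bars are exact 95% intervals, and the 33 genes called higher in both pairs are in bold: the red points stand above the blue ones in groups of neighbours such as Otud5 to Timm17b, and wide bars mark genes with few reads.

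The largest mean rise was that of Otud5, which encodes a deubiquitinase (7418957 to 7453752). Its paternal share was 2.48% and 0.434% in the +/+ libraries (18 of 726 and 3 of 692 reads). In MD1/MD1 it was 19.8% (17.1 to 22.6) and 17.5% (14.9 to 20.4), and Fisher's adjusted p was 1.3e-28 and 9.01e-35. Both MD1/MD1 intervals thus lay far above both +/+ values. Ccdc22, a subunit of a complex that recycles endosomal cargo (7170935 to 7182546), went from 1.02% and 2.99% to 19.6% and 17.2%. The promoters of these genes are shown beside those of Bcor and Tspan7, members with many reads that were called in neither pair, because the response differed while all 4 hold CpG dinucleotides.

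Sequences are from RefSeq, build GRCm38.p6 (all other positions here are mm9), 250 bases before to 50 after the outermost annotated start, 5′ to 3′, with CpG dinucleotides (CG, which reads the same on both strands) in capitals. Otud5 lies at chrX:7841581-7841880 (plus strand), Ccdc22 at chrX:7605371-7605670 (minus), Bcor at chrX:12160306-12160605 (minus) and Tspan7 at chrX:10484866-10485165 (plus).
Otud5: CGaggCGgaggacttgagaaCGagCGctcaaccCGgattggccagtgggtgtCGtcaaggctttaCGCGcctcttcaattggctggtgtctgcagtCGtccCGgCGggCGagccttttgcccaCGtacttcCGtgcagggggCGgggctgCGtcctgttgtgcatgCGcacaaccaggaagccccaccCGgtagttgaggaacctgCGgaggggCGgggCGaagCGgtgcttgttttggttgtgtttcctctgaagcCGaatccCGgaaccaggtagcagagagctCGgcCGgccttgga
Ccdc22: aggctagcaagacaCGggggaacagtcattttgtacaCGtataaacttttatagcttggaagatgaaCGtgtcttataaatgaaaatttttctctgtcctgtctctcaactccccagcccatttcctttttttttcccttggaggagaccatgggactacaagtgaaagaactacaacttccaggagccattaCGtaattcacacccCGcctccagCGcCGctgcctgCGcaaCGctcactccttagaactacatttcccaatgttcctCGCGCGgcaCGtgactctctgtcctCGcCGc
Bcor: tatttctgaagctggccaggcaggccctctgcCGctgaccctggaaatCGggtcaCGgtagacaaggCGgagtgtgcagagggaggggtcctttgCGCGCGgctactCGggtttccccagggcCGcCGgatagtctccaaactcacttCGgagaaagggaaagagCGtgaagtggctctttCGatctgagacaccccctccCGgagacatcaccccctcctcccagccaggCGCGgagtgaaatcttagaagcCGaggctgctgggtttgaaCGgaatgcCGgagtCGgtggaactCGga
Tspan7: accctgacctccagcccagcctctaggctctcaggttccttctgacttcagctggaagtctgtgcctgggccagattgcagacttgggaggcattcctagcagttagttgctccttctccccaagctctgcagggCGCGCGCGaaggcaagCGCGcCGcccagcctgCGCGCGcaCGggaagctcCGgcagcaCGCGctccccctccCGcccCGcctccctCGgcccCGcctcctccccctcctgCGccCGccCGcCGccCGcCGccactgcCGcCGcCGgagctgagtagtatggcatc

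The Otud5 window holds 26 CpG and that of Ccdc22 15, against 21 for Bcor and 27 for Tspan7. At least as many occur in 16.8%, 35.2%, 25% and 15.4% of all promoters of the RefSeq table, 1 per gene. Promoters were matched for 60 of the 68 members. The 30 matched members called higher in both pairs held 5 to 57 CpG, with a median of 21, and the 21 matched members called in neither pair 2 to 39, with a median of 17. The ranges overlapped over most of their width.

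Genes of the ubiquitin pathway, which tags proteins for degradation or signalling, held 8 members, and 6 of them were higher in both pairs. Of all X-linked genes tested 35.8% were, and of the members 48.5%. This list and those below differed in depth. The median number of reads in the shallowest library was 745.5 here and 142.5 for membrane transport, trafficking and organelles. A difference between the lists was not tested. Uba1, the enzyme that activates ubiquitin (20235428 to 20260305), had the most reads. It was at 0.669% and 0.763% in +/+ on 2842 and 2884 reads, and at 16.6% (15.4 to 17.9) and 17.1% (15.8 to 18.5) in MD1/MD1 on 3380 and 3001 reads. The MD1/MD1 libraries could not be told apart by their intervals, and both lay far above +/+. Usp9x, a deubiquitinase gene (12648624 to 12750453), already had paternal reads in +/+, at 7.60% and 6.13%, and was at 14.0% and 16.8% in MD1/MD1. Cul4b, a scaffold of ubiquitin ligases, went from 0.687% and 0.328% to 10.9% and 9.78%, and Usp11, another deubiquitinase gene, from 0.443% and 0% to 9.82% and 8.28%. Xiap, whose protein blocks caspases, rose least of the 6, from 0.211% and 0.196% to 3.85% and 5.71%. Usp27x and Ube2a had 35 to 82 reads a library and no paternal read in +/+, and were at 3.51% and 5.71%, and at 3.33% and 1.69%, in MD1/MD1. At that depth neither difference passed.

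Of 9 members that act in RNA processing and translation, 6 were higher in both pairs (35.8% of all tested), 2 in 1 pair and 1 in neither. Ftsj1, a tRNA methyltransferase gene (7815794 to 7829532), had no paternal read among 394 and 562 in +/+, which allows up to 0.761% and 0.534%. In MD1/MD1 it was at 14.4% (11.5 to 17.7) and 11.7% (9.09 to 14.7). Pqbp1, whose protein binds splicing factors, was at 1.33% and 0% in +/+, against 12.4% and 14.3% in MD1/MD1. Ftsj1 and Pqbp1 thus went from near 0% to over 10% in both pairs. Nkap, which acts in splicing and transcriptional repression, rose from 0.198% and 0% to 13.2% and 12.4%. Rbm10, a splicing regulator whose start overlaps that of Ndufb11 on the other strand, had no paternal read in +/+ and was at 13.7% and 7.59% in MD1/MD1. Thoc2, of the complex that exports mRNA, rose from 0% in both +/+ libraries to 5.05% and 10.6%. Mcts1, a translation factor gene, was at 0% in +/+ throughout, against 0.952% and 9.24% in MD1/MD1, so that the Xist1lox/+ pair alone passed.

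Among 11 members for chromatin, transcription and cohesin, 6 were higher in both pairs (35.8% of all tested) and 4 in neither. Med14, a subunit of Mediator (12252497 to 12339099), was at 3.49% and 3.71% in +/+, against 18.7% (16 to 21.7) and 19.0% (15.8 to 22.7) in MD1/MD1. Zfp182, a zinc finger gene, had no paternal read among 96 and 133 in +/+ but 14.3% and 13% paternal reads in MD1/MD1. Hdac6, a deacetylase of tubulin, rose by less, from 0.482% and 0.363% to 5.91% and 7.30% on 1660 to 1928 reads. The MD1/MD1 intervals of Hdac6 lay below those of Med14, so the genes of this list differed in the level they reached. Jade3, Zbtb33 and Stag2, the last a cohesin subunit, were at 3.09% to 6.79% in the MD1/MD1 libraries.

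Bcor, a transcriptional corepressor gene (11613864 to 11737481), belongs to the same list and had the opposite order in the XistdeltaA/+ pair. It was at 5.61% in +/+ and 3.23% in MD1/MD1 there, and at 1.37% and 2.55% in the Xist1lox/+ pair. Neither difference passed (Fisher's adjusted p = 0.0604 and 0.273), and the 4 intervals partly overlap.

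Of 18 members for membrane transport, trafficking and organelles, 7 were higher in both pairs (35.8% of all tested) and 9 in neither. Slc35a2, the UDP-galactose transporter of the Golgi (7461370 to 7471618), reached the highest share of all members. It was at 4.27% and 2.88% in +/+, against 21.2% (17.3 to 25.7) and 12.9% (9.09 to 17.5) in MD1/MD1. Atp6ap2, an accessory protein of the proton pump of vesicles, went from 0.402% and 0% to 14.0% and 12.0%. Timm17b, of the import machinery of mitochondria, went from 0.647% and 0.629% to 15.4% and 9.58%. Rp2h, which acts on small GTPases of the cilium, was at 0% and 0.654% in +/+, against 15.5% and 9.76% in MD1/MD1. For Slc35a2, Timm17b and Rp2h the MD1/MD1 share was higher with XistdeltaA/+ than with Xist1lox/+, and the intervals overlapped. Pgrmc1, Lamp2 and Praf2 rose by less: Pgrmc1 had no paternal read among 820 and 1049 in +/+ and was at 1.78% and 3.74% in MD1/MD1.

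Of 9 members for kinases and signalling, 4 were higher in both pairs (35.8% of all tested). Pim2, a serine/threonine kinase gene, was at 6.41% and 4.33% in +/+, against 13% and 11.9% in MD1/MD1, on 843 to 2448 reads. Cdk16, a cyclin-dependent kinase gene next to Uba1, rose from 0.398% and 0% to 11.6% and 13.4%. Dock11, an activator of the GTPase Cdc42 (33428827 to 33616557), rose from 0% and 0.299% to 7.49% (5.41 to 10.1) and 15.2% (11.9 to 19.0). Its MD1/MD1 libraries did not overlap in their intervals. Maoa, a monoamine oxidase gene, went from 1.37% and 0.708% to 7.95% and 6.52%. Outside the lists, Nudt11, which encodes a hydrolase of inositol pyrophosphates, had no paternal read in +/+ and was at 15.7% and 14.4% in MD1/MD1. Mid1ip1, a regulator of lipid synthesis, went from 0% and 0.329% to 6.32% and 7.99%, and C330007P06Rik from 0% in both to 11.7% and 10%. Beyond the 25 members with the largest mean rises, the other 8 genes called in both pairs had MD1/MD1 shares of 1.78% to 7.69%. A call in 1 pair was seen in 10 members, of which Ppp1r3f had the highest MD1/MD1 shares, 17.3% and 16.7%, on 52 and 30 reads. Among all 341 X-linked genes tested, 65 had a call in 1 pair or, for 2 of them, opposite calls in the pairs.

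Some members with many reads were near 0 in all 4 libraries. Tspan7, a tetraspanin gene of the cell surface (10062242 to 10173730), had 547 to 622 reads and shares of 0.518% and 0.183% in the XistdeltaA/+ pair, and of 0% and 0.643% in the Xist1lox/+ pair. The upper bounds in MD1/MD1 were 1.01% and 1.64%. Rbm3, a cold-inducible RNA-binding protein gene, had 1 paternal read of 627 and 0 of 366 in MD1/MD1, against 0 of 256 and 0 of 2089 in +/+. These upper bounds lie below the MD1/MD1 share of every gene called in both pairs. Timp1, which inhibits matrix metalloproteinases, was at 0% and 0% on 226 and 711 reads with XistdeltaA/+, and at 0.235% and 0.743% with Xist1lox/+. It lies within Syn1 on the other strand, and for strand use in counting the sources used here give no answer. In all, 16 members overlap another gene of the table, 2 of them (Xk and Bcor) on the same strand. Xk, Wdr13, Ebp and Akap17b complete the 8 deepest members called in neither pair, at 0% to 4.55% in MD1/MD1 on 123 to 204 reads.

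Calls went with the number of reads. Of the 34 members whose shallowest library was at or above the median of the members, 25 were higher in both pairs and 4 were called in neither. Of the 34 with fewer reads, 8 were higher in both and 21 were called in neither. Of all X-linked genes tested 35.8% were higher in both. The changes differed in size too. Their medians were 6.81 and 7.27 points in the members with more reads, and 3.02 and 3.73 points in those with fewer. Whether depth or the size of the change accounts for the calls was not tested. Syn1 and Nkrf had no paternal read in any library, but on 25 to 52 reads, which allows shares of up to 5.77% to 12%. A rise of the size seen in Pgrmc1 or Lamp2 was not detectable at that depth.

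Along the chromosome, the +/+ libraries had most of their paternal reads in the first stretches. For the 29 members from Nudt11 to Rpgr the pooled +/+ share was 2.13% and 2.49%, and for the 10 from Tspan7 to Rp2h 3.24% and 1.95%. It was 0.452% and 0.420% for the 12 from Jade3 to Wdr44, and 0.195% and 0.411% for the 17 from Dock11 to Stag2. The intervals of the first 2 stretches lay above those of the last 2 in both +/+ libraries. Without the member with the most reads in each stretch (Pim2, Usp9x, Uba1 and Cul4b), a choice made after seeing the data, the +/+ shares were 1.66% and 2.05%, 1.68% and 0.938%, 0.255% and 0.0386%, and 0.0801% and 0.430%. With Xist1lox/+ the intervals of the second and the last stretch then overlapped.

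In MD1/MD1 the pooled share of the third stretch was 12.3% (11.5 to 13.2) and 13% (12.1 to 13.9), above the 10.7% and 10.02% of the first and the 9.56% and 9.32% of the second. That lead rests on Uba1, which held 53.7% and 55.2% of the reads there. Without the deepest member the shares were 10.3% and 9.54% in the first stretch, 8.004% and 7.45% in the second and 7.33% and 7.89% in the third. The last stretch was the lowest with all members, at 5.604% (5.07 to 6.18) and 6.92% (6.31 to 7.57), and without Cul4b, at 4.39% and 6.14%. In the Xist1lox/+ library its interval without Cul4b (5.49 to 6.84) overlapped that of the second stretch without Usp9x (6.58 to 8.39). In the order along the chromosome, 10 of 29, 6 of 10, 6 of 12 and 11 of 17 members were higher in both pairs, where 35.8% of all X-linked genes tested were.

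**Figure D2:**
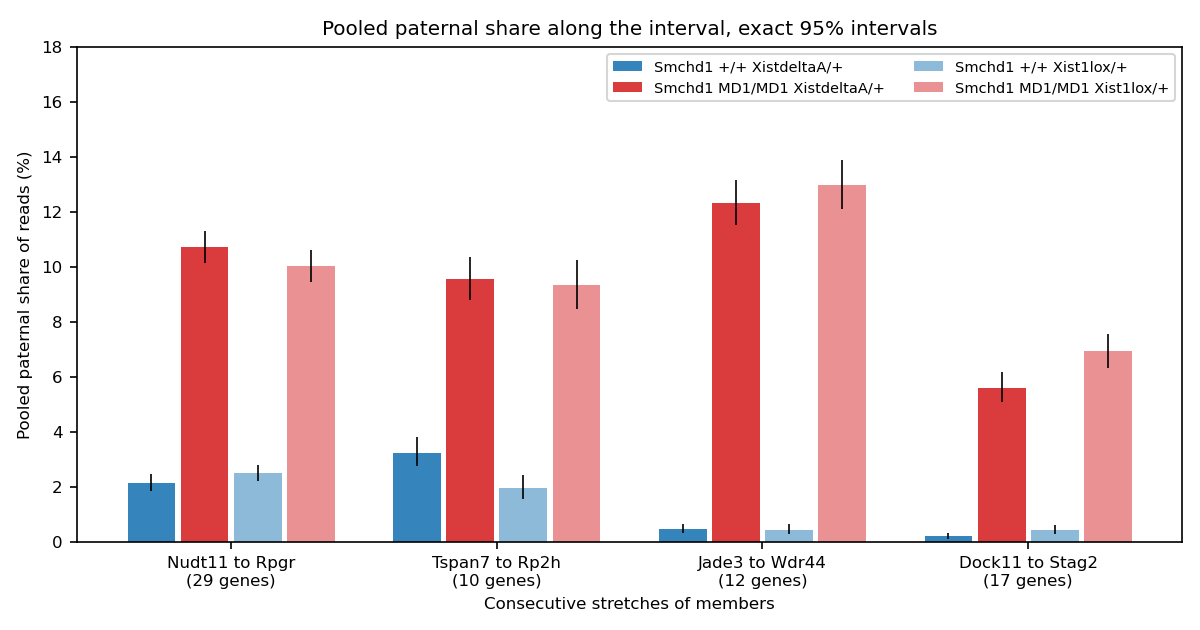
Pooled paternal share of allele-assigned reads (%, y axis) in 4 consecutive stretches of members of 10 Mb each (x axis, named by first and last gene), with 1 bar per library and exact 95% intervals. The blue +/+ bars are at 1.95% to 3.24% in the first 2 stretches and under 0.5% in the last 2, while the red MD1/MD1 bars stand highest, at 12.3% and 13%, in the third, where Uba1 holds over 50% of their reads.

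Within these stretches, members called higher in both pairs alternated with members not called in both. Along the order of members, the longest runs called higher in both pairs were 6 genes from Rp2h to Usp11, 5 from Otud5 to Timm17b and 5 from Upf3b to Cul4b. The run from Rp2h to Usp11 was followed by 5 genes, Syn1, Timp1, Cfp, Elk1 and A230072C01Rik, with MD1/MD1 shares of 0% to 5%, and then by Zfp182 at 14.3% and 13%. The 4 genes from Wdr13 to Ebp were at 0% to 4.55% in MD1/MD1, and their run was followed by Ftsj1 at 14.4% and 11.7%. Most genes of these uncalled runs had few reads, so a low share was not established for them. The upper bounds in MD1/MD1 reached 13.7% for Syn1, 12.3% for A230072C01Rik, 11.2% for Elk1 and 7.50% for Cfp. For Tbc1d25, Wdr13 and Ebp they reached 9.64%, 8.76% and 6.60%, but only 2.15% for Timp1 and 1.003% for Rbm3. The mean rise of a gene and that of the next member along the chromosome had a Spearman correlation of 0.19 over 67 neighbouring pairs, and the same measure was 0.15 over 272 pairs of other X-linked genes. These are descriptions over genes that share libraries.

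Paternal reads in +/+ were concentrated in few members. Gpkow, a gene of the spliceosome (7274260 to 7287385), was at 7.76% in +/+ XistdeltaA/+ and 15.4% (12.0 to 19.3) in +/+ Xist1lox/+, and at 15.1% and 14.1% in MD1/MD1. Tfe3, a transcription factor of lysosomal genes, was at 6.40% and 11.3% in +/+, against 15.6% and 13.2% in MD1/MD1. Both were higher in MD1/MD1 with XistdeltaA/+ and did not pass with Xist1lox/+. They were the members at 10% or more in any +/+ library, and 0 members reached 10% in both. Med14 and Usp9x, with +/+ shares of 3.49% to 7.60%, lie on the side of Ddx3x nearer the start of the chromosome. Ddx3x was at 34.8% and 33.1% in +/+, against 35.6% and 35.5% in MD1/MD1, and Kdm6a at 46.5% and 48.8%, and at 49.2% and 43.0%. Atp6ap2 and Cask, the next members on either side of Med14, Usp9x and Ddx3x, had +/+ shares of 0% to 1.22%. Between Atp6ap2 and Med14 lies 1810030O07Rik, which was left out by name. It was at 9.69% and 7.26% in +/+ on 196 and 179 reads, and at 19.1% and 14.4% in MD1/MD1.

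A paternal share of 10% or more in both MD1/MD1 libraries and in neither +/+ library was seen in 17 of the 68 members (25%). The same was seen in 14.4% of all X-linked genes tested and in 32 of the other 273 (11.7%). With a threshold of 5% there were 28 such members and with 20% there were 0. When the genes left out by name were put back, 21 of 76 genes passed the threshold of 10%.

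The change of the share was compared between the pairs. With a normal test on log odds ratios, 0 of the 68 members differed at an adjusted p under 0.05, as against 2.05% of all X-linked genes tested, and 8 had an unadjusted p under 0.05, as did 34 of the 341 genes. The call rests on the family of tests and on the scale. Adjusted over all genes of the table, 4 members passed, Clcn5, Gpkow, Tfe3 and Otud5, and on the scale of share differences 2 did, Clcn5 and Dock11. The wider family gave smaller adjusted p-values for the same normal test: 0.0158 in place of 0.117 for Clcn5, and 0.0448 in place of 0.242 for Otud5. In points the changes of Otud5 were nearly equal, 17.3 and 17.1. Clcn5, a chloride transporter gene of endosomes, was at 0.5% (+/+) and 2.89% (MD1/MD1) in the XistdeltaA/+ pair, and at 7.19% and 1.03% in the Xist1lox/+ pair. It was lower in MD1/MD1 in the second pair (Fisher's adjusted p = 0.0114). Sept6, a septin gene, was at 0.147% and 0.194%, and at 2.43% and 0.660%, and was lower in MD1/MD1 in the second pair too. Over the 68 members, Spearman's correlation between the changes in the pairs was 0.71, a description of genes from the same 4 libraries.

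**Figure D3:**
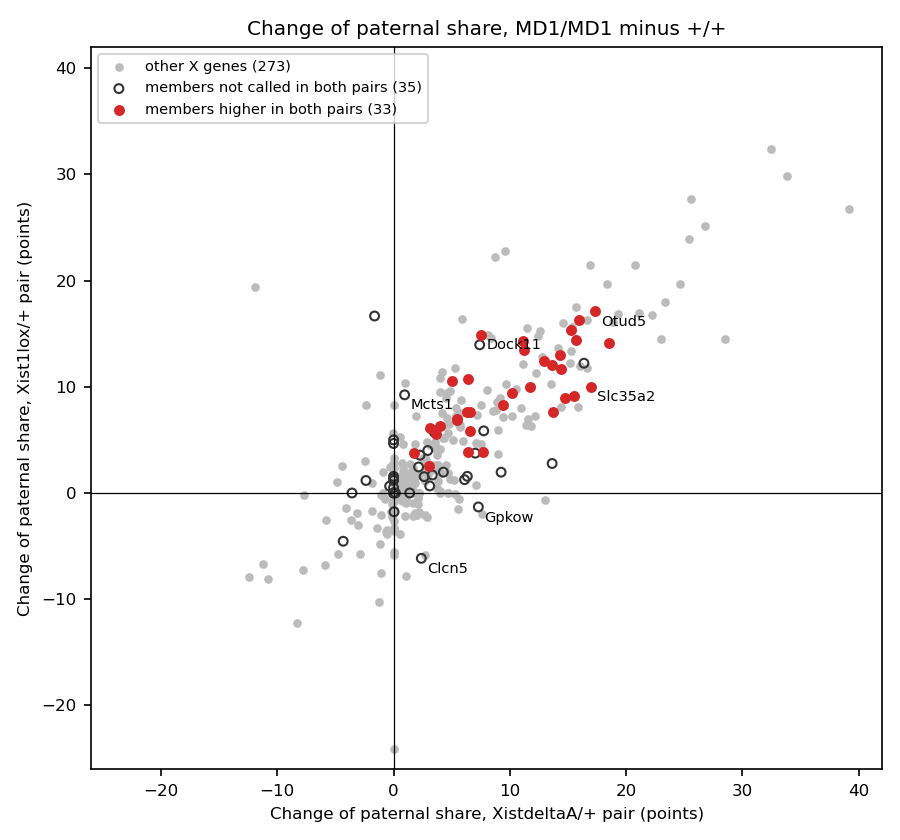
Change of the paternal share from +/+ to MD1/MD1 in points, XistdeltaA/+ pair (x axis) against Xist1lox/+ pair (y axis), 1 point per gene. The 33 members called higher in both pairs (red) lie in the upper right, with mean rises from 2.76 to 17.2 points, the other 35 members (open) reach from below 0 into the same area, and grey points are the other 273 X-linked genes, of which 1 lies outside the axes.

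The Xist mutations were compared in the same way, as a measure of how far libraries of the same Smchd1 genotype differ. In +/+, 3 members had a higher share with Xist1lox/+ than with XistdeltaA/+ (Clcn5, Gpkow and Sept6, 5.28% of all tested) and 3 a lower one (Bcor, Otud5 and Pqbp1, 1.47% of all tested). In MD1/MD1, Dock11 was higher (3.81% of all tested) and 0 members were lower (1.17%). In both genotypes together 0 members differed in the same direction, where 2.35% of all tested were higher and 0% lower. This contrast uses the same libraries as the Smchd1 comparison.

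The median total expression of the members differed little between genotypes. A mean of at least 1 FPKM was reached by 68 of the 69 members, Dynlt3 included and Zfp182 not. Over these the median log2 ratio of MD1/MD1 over +/+, on the scale of log2(FPKM + 1), was 0.059 with XistdeltaA/+ and 0.089 with Xist1lox/+. All 11471 genes tested had medians of -0.048 and 0.0040. With allele-assigned reads scaled to library totals in place of FPKM, the first median was -0.010. FPKM attributed to the paternal allele summed to 13.8 (+/+) and 137 (MD1/MD1) in the XistdeltaA/+ pair, and to 20.05 and 130.0 in the other. FPKM attributed to the maternal allele summed to 1205 and 1336, and to 1335 and 1291. In MD1/MD1 the paternal sum was thus 9.87 and 6.48 times that of +/+, and the maternal sum 1.11 and 0.966 times. For 262 other X-linked genes, without Xist, Ftx, Jpx and the genes left out by name, the paternal ratios were 6.03 and 3.99. Their maternal ratios were 0.908 and 0.985.

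For the 33 genes called in both pairs, the shares alone would give median log2 ratios of 0.16 and 0.14 if the maternal output were equal. The measured medians were -0.048 with XistdeltaA/+ and 0.13 with Xist1lox/+, and 15 and 28 of the 33 were above 0. The members called in neither pair had measured medians of 0.013 and -0.070.

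By limma on log2(FPKM + 1), with Smchd1 genotype and Xist mutation as terms, 0 of these 68 members passed at an adjusted p under 0.05, as against 0.0349% of all genes, and 1, Bcor, had an unadjusted p under 0.05. edgeR on allele-assigned reads called 0 of 69 members, with an unadjusted p under 0.05 for 1. With XistdeltaA/+, 4 members were at least 2-fold higher in MD1/MD1 on this scale (3.91% of all genes) and 1 was at least 2-fold lower (1.82%). With Xist1lox/+ 0 members were 2-fold higher (0.445% of all genes) or lower (0.375%). Pim2 was at 50.1, 176, 156 and 127 FPKM (XistdeltaA/+ pair first, +/+ before MD1/MD1). Timp1 was at 23.6, 76.5, 45.4 and 47.9, Cfp, the complement factor properdin, at 3.09, 7.99, 6.05 and 6.84, and Bcor at 9.90, 22.2, 13.2 and 17.3 in the same order. In these 4 genes the +/+ XistdeltaA/+ library was the lowest of the 4. Usp11 was the highest there, at 17.2 against 4.66, 6.72 and 6.18. The +/+ XistdeltaA/+ library was also the lowest in fibroblast and macrophage markers, at 79.6 and 22.3 FPKM in sum, against 93.9 to 212 and 314 to 979 in the others, and the part of those cells in the levels of Timp1 and Cfp was not tested.

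**Figure D4:**
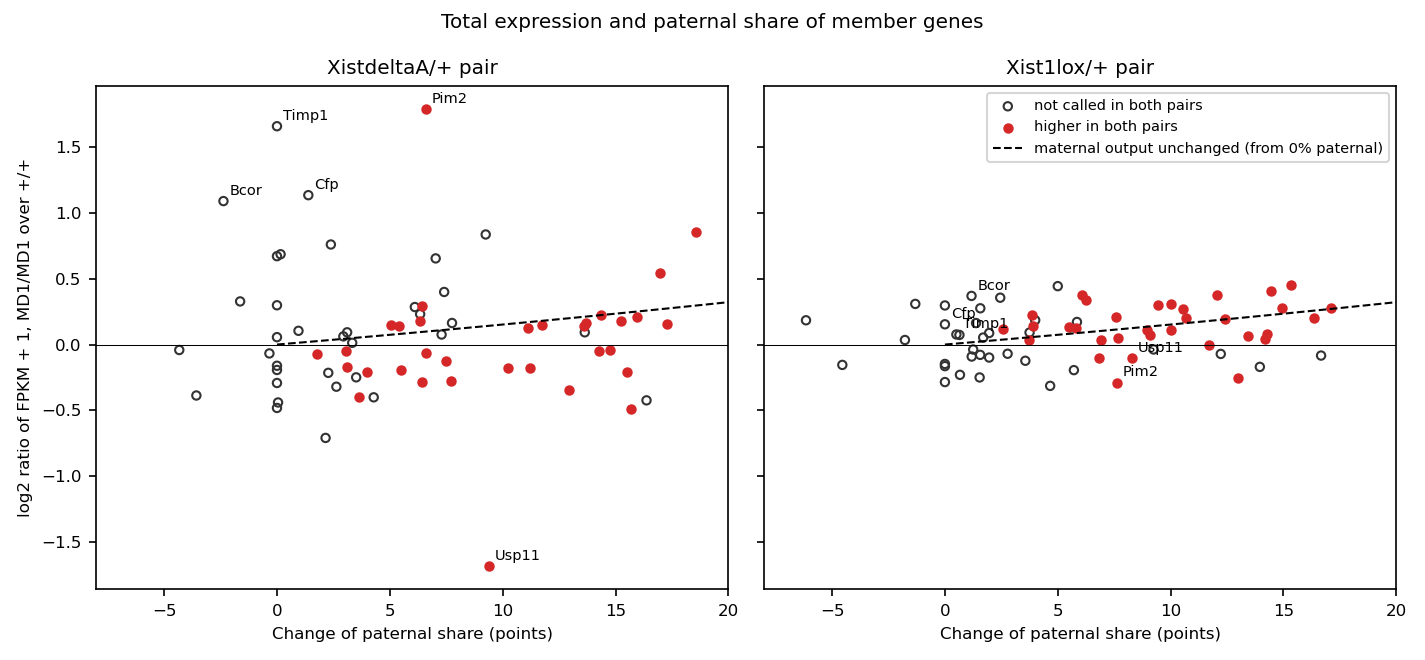
log2 ratio of FPKM + 1, MD1/MD1 over +/+ (y axis), against the change of the paternal share in points (x axis) for the 68 members, XistdeltaA/+ pair on the left and Xist1lox/+ pair on the right. Red points are the 33 members called higher in both pairs and the dashed line is the ratio given by paternal output added to an unchanged maternal one: Pim2, Timp1, Cfp, Bcor and Usp11 stand far from it on the left and all members lie between -0.31 and 0.45 on the right.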

How the data were processed

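Poly(A) RNA libraries (TruSeq Stranded mRNA, per the labels' protocols) of 4 EpiSC genotypes were analysed, 1 library each. The authors deposited 1 table in build mm9 with, per gene and library, FPKM, allele-assigned read counts and the fraction of those reads that is paternal. Cufflinks 2.2.1 and Cuffdiff are named in the submitters' processing notes; aligner, allele calling and strand use: not given in the sources used here. Not used were 6 columns, of another cell type, that match no sample. Paternal reads are the deposited fraction times the count, whole within 1e-06 for 100% of values.

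Members needed 20 reads in all libraries. Pairs were compared with Fisher's exact test (scipy 1.17.1) and Benjamini-Hochberg adjustment over 341 X-linked genes, and the pairs with each other by a normal test of log odds ratios (0.5 added to each cell). FPKM was tested as log2(FPKM + 1), mean FPKM of at least 1, with limma 3.58.1 (1 residual degree of freedom), and reads with edgeR 4.0.16. Fisher's test treats reads as independent, which PCR copies are not, and its p-values compare single libraries; limma, edgeR and the permutation test compare 2 libraries per Smchd1 genotype. On simulated data Fisher's test called 53% of genes changed by 5 points in both pairs, 83% at 15 points and 0% of unchanged genes. With 1 library per genotype, differences between libraries of equal genotype could not be taken from these data for the simulation. Its 0% therefore gives no rate of false calls between genotypes. Alternatives were the read minimum, adjustment, thinning, weights, thresholds, pseudocount and scaling. The text names the 25 members with the largest mean rise among those called in both pairs, the 8 deepest called in neither, and those that differ between pairs or Xist mutations; Ppp1r3f, Mcts1, Syn1, Nkrf and the others were chosen after their values were seen. The members, gene lists and comparisons were chosen with earlier results of these data known.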

Additional observations from a re-analysis of the deposited data

How the results depend on the processing

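Of 55 recomputed values, 1 changed sign and 10 moved past the tolerance set for their kind (1.5 times for a count of genes, the counting interval for a pooled difference). The members called higher in both pairs numbered 26 to 37: 28 with libraries thinned to equal depth, 26 with a rise of at least 5 points required and 37 with the genes left out by name put back. With those genes put back, 1 member, Fundc1, was lower in both pairs, and the pooled Xist1lox/+ difference was 7.18 points. Pooled differences were 6.32 and 6.08 points with equal weight per gene, and 7.32 and 7.19 without Uba1. Members called for a change that differed between pairs numbered 4 with adjustment over all genes and 2 on the points scale. Members that gained a share past the threshold in both MD1/MD1 libraries numbered 28 at 5% and 0 at 20%. The median log2 ratio with XistdeltaA/+, 0.059 as reported, was 0.12 at a mean FPKM of at least 5, 0.11 when centred on autosomal genes and -0.010 when allele-assigned reads scaled to library totals replaced FPKM. The cause of these shifts was not tested beyond what each setting changes. The labels give no replicate numbers; Fisher's tests and limma already compare within each Xist mutation, and limma with Smchd1 genotype alone also called 0 of 68 members (3 at an unadjusted p under 0.05). With 1 library per genotype none was left out. Depth limits calls for members with few reads.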

Other observations

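Rbm3 had 256, 627, 2089 and 366 allele-assigned reads (XistdeltaA/+ pair first, +/+ before MD1/MD1) at 30.7, 50.1, 61.3 and 54.6 FPKM, so reads and FPKM were not in proportion. The same was seen in genes called higher in both pairs. Atp6ap2 had 498, 336, 377 and 274 reads at 29.8, 32.8, 24.2 and 31.7 FPKM. Rp2h had 153 and 82 reads at 6.58 and 6.96 FPKM in the Xist1lox/+ pair. Across the 68 members the mean rise had Spearman correlations of 0.24 with mean FPKM, 0.28 with allele-assigned reads, -0.014 with gene span, 0.18 with promoter CpG (60 members) and -0.11 with the distance to the nearer of Ddx3x and Kdm6a. These describe genes that share the same libraries. For promoter CpG the other X-linked genes had 0.31 over 238 genes.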
